A study of Saccharomyces cerevisiae with 12 samples.

Results

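The wine yeast EC1118 was compared with the laboratory yeast CEN.PK113-7D, both grown at 15 °C. All arrays titled with either strain at 15 °C were taken, 3 of EC1118 and 3 of CEN.PK113-7D, which made 6 of the 12 arrays of the series. Both are Saccharomyces cerevisiae. EC1118 is an industrial strain known to be diploid, whereas CEN.PK113-7D, used in laboratories, is haploid with mating type a. Both were grown without oxygen as steady-state chemostats at a dilution rate of 0.05 per h, in minimal medium supplied with anaerobic growth factors, with nitrogen limiting growth. Each group held 3 biological replicates, each on its own Affymetrix yeast array. The other 6 arrays carried the same strains at 30 °C, 3 each. Strain background, ploidy and mating type differ together between the strains and cannot be told apart.

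In budding yeast, a cells make a-factor and carry the receptor for α-factor, α cells do the reverse, and both share haploid-specific genes that transmit the pheromone signal. A diploid holds both mating types, and its a1 and α2 proteins together repress the haploid-specific genes. Wine strains are also known to differ from laboratory strains near chromosome ends and in genes for sugar use, sulfite export and adhesion. The probes follow the sequence of a laboratory reference strain, so a low signal in one strain cannot be told apart from a missing gene or a mismatch under the probes, and this was not tested.

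The deposited table held 1 linear intensity per array for 5900 probe sets, 5498 of them with 1 gene name. The lowest intensity, 10, was a floor, and between 1.90% and 3.31% of values on each array lay there. The median intensity lay between 329 and 353 at 15 °C. Replicate 3 stood apart in both strains at 15 °C. In EC1118 it correlated with replicates 1 and 2 at r = 0.982 and 0.984 across log2 intensities, and that pair at 0.994. In CEN.PK113-7D these values were 0.975 and 0.979, against 0.993 for the pair. Leading counts are therefore given also without replicate 3 of both strains.

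Of 5900 probe sets, 1913 (32.4%) differed between the strains at 15 °C at a Benjamini-Hochberg adjusted p under 0.05 in limma. EC1118 was higher for 1093 (18.5%) and lower for 820 (13.9%), and the median log2 difference, EC1118 minus CEN.PK113-7D, was 0.04. Differences of at least 2-fold numbered 134 higher (2.27%) and 215 lower (3.64%), of which 43 and 100 were at least 4-fold. The 3 values of one strain lay apart from the 3 of the other for 44.4% of probe sets, with all EC1118 values above in 25.7% and all below in 18.7%. Without replicate 3 of both strains, 814 were higher and 669 lower. The shares of 18.5% higher and 13.9% lower are the background for every list count below. In this bulk RNA, fewer cells of a type and less RNA per cell cannot be told apart. Genes named below to account for a count of 5 or fewer, outside the rule for named genes, were chosen after their values were seen.

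**Figure D1:**
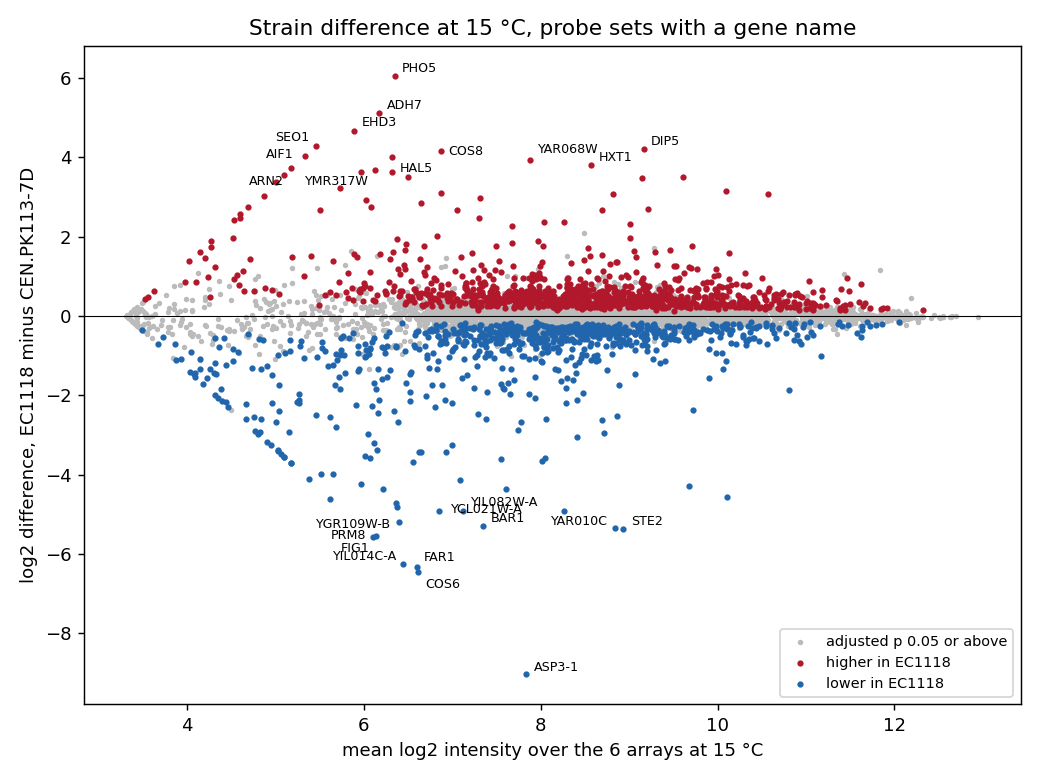
Log2 difference at 15 °C (vertical axis, EC1118 minus CEN.PK113-7D) against the mean log2 intensity of the 6 arrays at 15 °C (horizontal axis), 1 point per named probe set, red where EC1118 was called higher, blue where called lower, grey where not called. PHO5 lies highest at 6.05 and ASP3-1 lowest at -9.03, both bounds set by the floor.

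The genes that mark a cells were far lower in EC1118, in 7 of 7 cases, where 13.9% of all probe sets were called lower. Their median log2 difference was -4.83, against 0.04 over all probe sets. STE2, the receptor for α-factor, read 67.5, 71.4 and 92.9 in EC1118, against 3008, 2810.2 and 3661 in CEN.PK113-7D. It was 41-fold lower in EC1118 (log2 difference -5.36 ± 0.14 SE, adjusted p = 2.43e-09). BAR1, the secreted protease that degrades α-factor, read 25.9, 23.9 and 29.1 in EC1118, against 773, 916 and 1489.7 in CEN.PK113-7D (38.9-fold lower). The a-factor precursor genes followed, MFA1 with 144, 181 and 248 in EC1118, against 2978, 3445 and 4558 in CEN.PK113-7D and a 19.4-fold lower level in EC1118. MFA2 was 23.6-fold lower. STE6, the transporter that exports a-factor, was 20.6-fold lower, and AGA2, the adhesion subunit of a-agglutinin, 30.0-fold lower. ASG7, an a-specific regulator of signalling, was 28.4-fold lower, and 18.3-fold without CEN.PK113-7D replicate 3. For none of these 7 genes did the strains overlap, and none was at the floor in EC1118.

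Signal from the mating-type loci was looked at after its values were seen. HMLALPHA1, the gene of the α1 activator, read 29.1, 29.9 and 34.7 in EC1118, against 10, 10.3 and 10 in CEN.PK113-7D, at least 3.08-fold higher in EC1118 (adjusted p = 3.98e-07, a probe set shared between copies). HMRA1, the gene of the a1 repressor, read 228, 263 and 288 in EC1118, against 423, 529 and 777 in CEN.PK113-7D (2.16-fold lower, adjusted p = 0.00196). EC1118 thus gave signal above the floor for both, low for α1, while CEN.PK113-7D gave signal for a1 with α1 at or near the floor.

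Of 12 haploid-specific genes, 11 were lower in EC1118 and 0 higher, with a median log2 difference of -2.35. The first are parts of the signalling chain. GPA1, the α subunit of the G protein at the pheromone receptors, read 32.5, 31.4 and 33.8 in EC1118, against 534, 524 and 673 in CEN.PK113-7D (17.6-fold lower, adjusted p = 4.73e-08). STE18, its γ subunit, read 18.9, 13.3 and 17.4 in EC1118, against 284, 317 and 429.5 in CEN.PK113-7D (20.7-fold lower). FAR1, the inhibitor that arrests the cell cycle in response to pheromone, read 10, 11.2 and 11.4 in EC1118, against 704, 777 and 1179.8 in CEN.PK113-7D, at least 79.6-fold lower in EC1118. The β subunit STE4 was 5.71-fold lower, the kinase FUS3 12.1-fold lower and the scaffold STE5 3.33-fold lower.

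The haploid-specific genes outside the signalling chain ran the same way. HO, the endonuclease of mating-type switching, read 42.5, 40.2 and 41 in EC1118, against 419.6, 404 and 363 in CEN.PK113-7D, 9.57-fold lower in EC1118 (log2 difference -3.26 ± 0.07). RME1, a repressor of meiosis, was 4.58-fold lower. NEJ1, a factor of DNA end joining, was at least 4.46-fold lower, RDH54, a recombination protein, 3.87-fold lower, and AXL1, which sets axial budding and processes a-factor, 3.24-fold lower. STE12, the transcription factor of the pathway, was the one that missed the threshold. It read 305, 229 and 317 in EC1118, against 374, 310.3 and 403 in CEN.PK113-7D, with overlap (log2 difference -0.36 ± 0.15, adjusted p = 0.0923), and passed with the replicate number as a block (adjusted p = 0.0452), with median centring (0.0422) and with quantile normalization (0.0451).

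The α-specific genes were lower in EC1118 too, in 5 of 5 cases, with a median of -2.51. STE3, the receptor for a-factor, read 22.2, 16.5 and 17.3 in EC1118, against 85.1, 106 and 129 in CEN.PK113-7D (5.68-fold lower, adjusted p = 2.33e-06). MF(ALPHA)1, the main α-factor gene, read 72.6, 92 and 246 in EC1118, against 505, 776 and 2364 in CEN.PK113-7D. Replicate 3 was the highest in both strains, and MF(ALPHA)1 was 8.26-fold lower in EC1118 (adjusted p = 0.00317), or 5.30-fold without CEN.PK113-7D replicate 3. MF(ALPHA)2, the second such gene, was 12.9-fold lower, and 7.66-fold without that array. SAG1, the α-agglutinin, was 3.07-fold lower, 1.99-fold without that array, and was not called in a fit of the 15 °C arrays alone (adjusted p = 0.0917). AFB1, the a-factor barrier protein, was 4.06-fold lower.

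Summed over the 5 α-specific genes, intensity was 356, 353 and 558 in EC1118, against 1223, 1825 and 5079.5 in CEN.PK113-7D at 15 °C. At 30 °C the sums were 771, 794 and 829 in EC1118, against 841, 783 and 931 in CEN.PK113-7D. The α-specific sum of CEN.PK113-7D thus lay higher on each 15 °C array than on its 30 °C arrays. A sum follows its brightest members, and the members did not all do so. MF(ALPHA)1 and MF(ALPHA)2 lay higher on each 15 °C array of CEN.PK113-7D than at 30 °C. STE3 overlapped there between temperatures, with 85.1, 106 and 129 at 15 °C against 87.7, 72.8 and 70.8. AFB1 overlapped too, with 171, 227 and 239.5 at 15 °C against 243, 224 and 245. CEN.PK113-7D replicate 3 was the highest of its group for 7 of 7 a-specific, 5 of 5 α-specific, 10 of 12 haploid-specific and 17 of 20 pheromone-induced genes, where 47.2% of all probe sets had it highest. Without replicate 3 of both strains, the calls of these lists numbered 7, 5, 11 and 14 lower.

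Genes induced by pheromone were lower in EC1118 in 14 of 20 cases and higher in 0, or higher in 1 without CEN.PK113-7D replicate 3. Their median was -1.95, and -1.27 without replicate 3 of both strains. AGA1, the anchor subunit of a-agglutinin, read 82.2, 78.3 and 70.2 in EC1118, against 604, 725 and 1722 in CEN.PK113-7D (11.9-fold lower). FIG1, a membrane protein of mating, read 10, 10 and 11 in EC1118, against 185, 404 and 1516 in CEN.PK113-7D, at least 46.9-fold lower in EC1118. The CEN.PK113-7D values of FIG1 were far apart, and its fold was at least 26.5 without CEN.PK113-7D replicate 3 and at least 75.8 without replicate 1. PRM8, a pheromone-regulated membrane protein, was at the floor on all EC1118 arrays and read 357, 406 and 734 in CEN.PK113-7D, at least 47.4-fold lower in EC1118. SST2, which desensitises cells to pheromone, was 6.07-fold lower, and PRM5 11.5-fold lower.

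**Figure D2:**
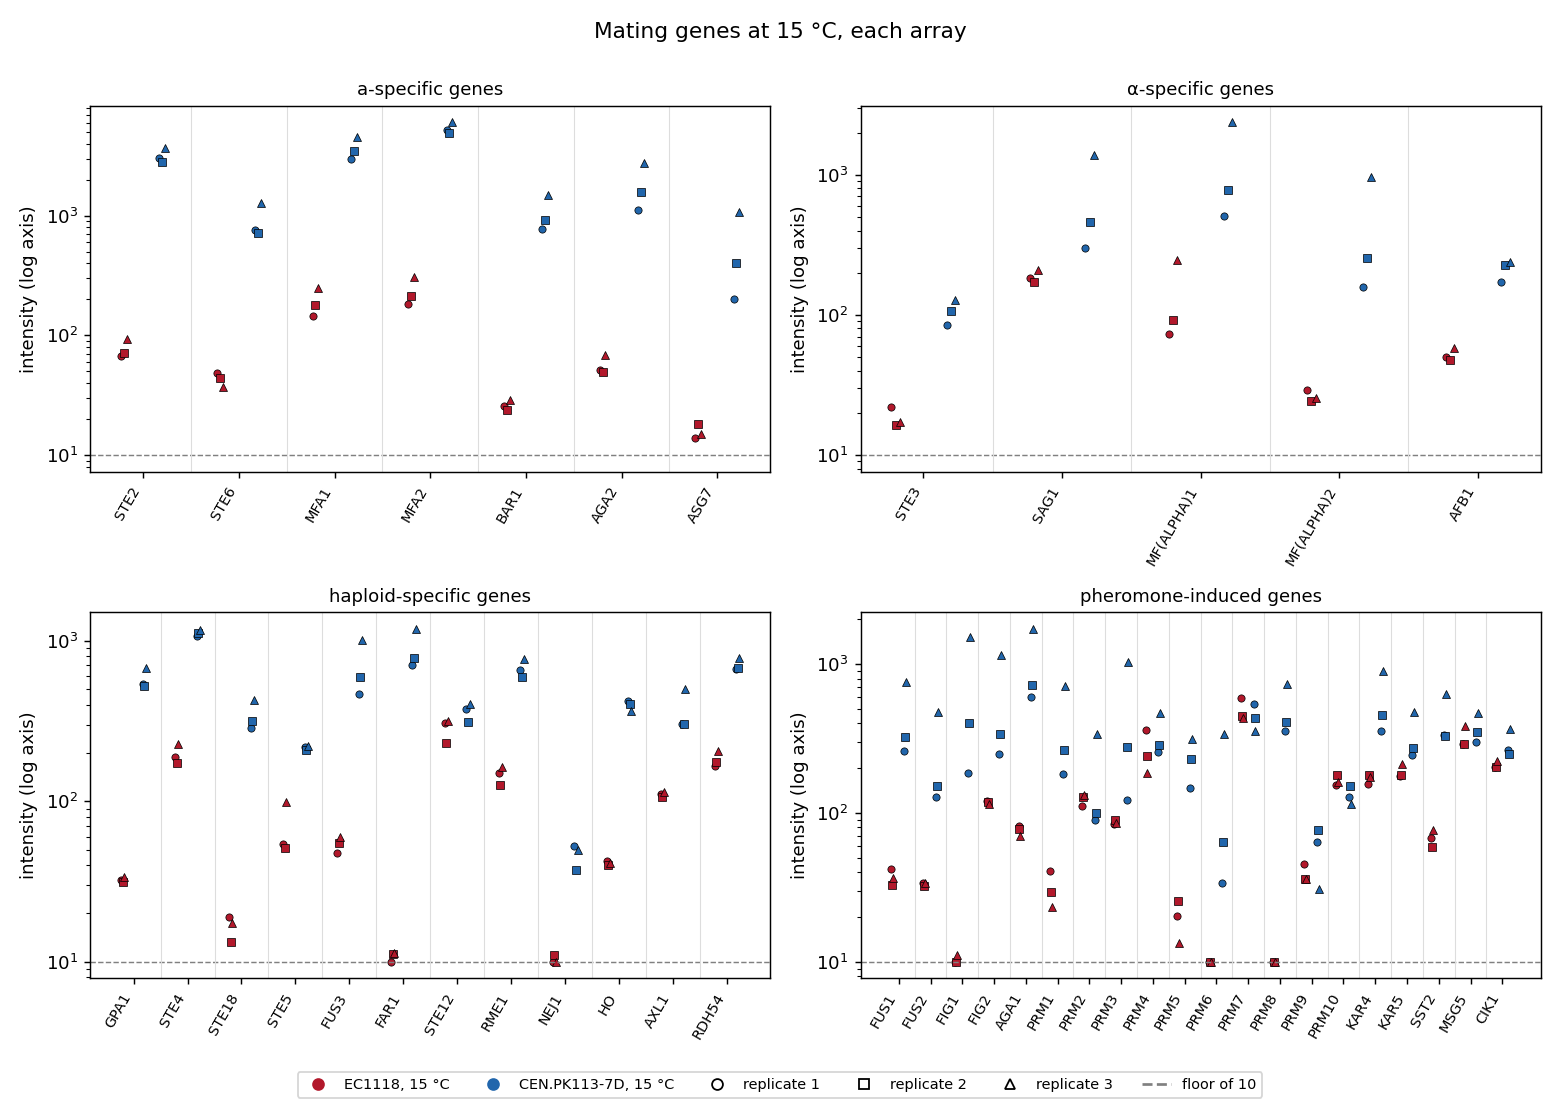
Intensity on each array at 15 °C (vertical axes, log scale) of a-specific, α-specific, haploid-specific and pheromone-induced genes (horizontal axes), EC1118 in red left of CEN.PK113-7D in blue, with 1 symbol per replicate and the floor of 10 dashed. EC1118 lies below CEN.PK113-7D in all 7 a-specific and all 5 α-specific genes, and replicate 3 is the highest blue symbol for 17 of 20 pheromone-induced genes.

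Genes of meiosis and sporulation did not form 1 pattern, with 2 of 35 higher in EC1118 and 8 lower, a median of -0.11. Over all probe sets, 18.5% were higher and 13.9% lower. The higher pair was IME4, a methyltransferase of meiotic entry, and the sporulation kinase SPS1. IME4 read 165, 140.2 and 187 in EC1118, against 10, 10.2 and 52.5 in CEN.PK113-7D, where replicate 3 of CEN.PK113-7D stood above the others. Its fold was at least 9.32, and at least 16.2 without that array. SPS1 differed by 0.61 log2. NDT80, the activator of the middle meiotic genes, read 19.1, 22.2 and 19.6 in EC1118, against 94.8, 118 and 150.2 in CEN.PK113-7D (5.87-fold lower). SPO11, which makes meiotic DNA breaks, was at the floor on all EC1118 arrays and read 63.5, 76.1 and 86.8 in CEN.PK113-7D (at least 7.49-fold lower). HOP1, a protein of the meiotic chromosome axis, was at least 7.62-fold lower. CDA1, a chitin deacetylase of the spore wall, was 10.7-fold lower.

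Among the 12 highest differences, PHO5 led. This secreted acid phosphatase, repressed by phosphate, read 1118, 684 and 384 in EC1118 and was at the floor on all CEN.PK113-7D arrays, at least 66.5-fold higher (log2 difference 6.05 ± 0.29, adjusted p = 3.13e-07). ADH7, an NADPH-dependent alcohol dehydrogenase, read 992, 643 and 121 in EC1118, against 11.8, 10 and 15.6 in CEN.PK113-7D. Its replicates in EC1118 were far apart, and the difference was at least 34.7-fold, at least 65.1 without EC1118 replicate 3, at least 73.4 without replicate 3 of both strains and at least 22.8 without EC1118 replicate 1. EHD3, a mitochondrial enzyme of valine breakdown, read 285, 299 and 310.0 in EC1118, against 11.7, 14.1 and 10 in CEN.PK113-7D (at least 25.2-fold higher). HAL5, a kinase of cation homeostasis, had close replicates, 339.5, 327 and 295 in EC1118, against 19.3, 18.6 and 22.2 in CEN.PK113-7D (16-fold higher). SEO1, a putative permease, and AIF1, a mitochondrial cell death factor, were at the floor on all CEN.PK113-7D arrays and were at least 19.5-fold and at least 16.3-fold higher in EC1118. Of the genes known by ID alone, YAR068W read 956, 885 and 912 in EC1118, against 47.2, 76.8 and 61.2 in CEN.PK113-7D (15.2-fold higher). YMR317W read 938, 383 and 43.2 in EC1118, against 16.2, 26.1 and 17.7 in CEN.PK113-7D (12.8-fold higher, adjusted p = 0.0168). It was not called without EC1118 replicate 1 (6.59-fold, adjusted p = 0.0539) or replicate 2 (10.3-fold, adjusted p = 0.0548), and its fold was 30.7 without replicate 3. Nor was YMR317W called in a fit of the 15 °C arrays alone (adjusted p = 0.0684).

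The lowest value of all was that of ASP3-1, the cell wall asparaginase, which releases ammonia from asparagine. It was at the floor on all EC1118 arrays and read 5204, 4914 and 5613 in CEN.PK113-7D, at least 524-fold lower in EC1118 (log2 difference -9.03 ± 0.05, adjusted p = 1.30e-14). Its probe set is shared between near-identical copies, so the copies cannot be told apart. ASP1, the intracellular asparaginase, read 741, 742 and 811 in EC1118, against 919, 1134 and 1064 in CEN.PK113-7D, 1.35-fold lower in EC1118 (adjusted p = 0.0128, and 0.0508 without CEN.PK113-7D replicate 2). COS6, of a family near chromosome ends, read 11.4, 10 and 10 in EC1118, against 928, 891 and 919 in CEN.PK113-7D (at least 87.4-fold lower). YIL014C-A was at the floor on all EC1118 arrays and at least 76.2-fold lower. YAR010C, on a shared probe set, was 40.9-fold lower and YCL021W-A 30.4-fold lower. YGR109W-B read 10.6, 12.8 and 20.2 in EC1118, against 250.3, 325 and 1658 in CEN.PK113-7D (36.7-fold lower, and 20.4-fold without CEN.PK113-7D replicate 3). YIL082W-A, on a shared probe set, was 30.3-fold lower, and 17.0-fold without that array.

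Some probe sets gave signal in 1 strain alone. On 33 probe sets EC1118 was at the floor on all 3 arrays while CEN.PK113-7D was above it on all 3, and 21 did the same at 30 °C. The converse held for 13, of which 10 did the same at 30 °C. Of these, 9 had CEN.PK113-7D above 100 on every array and 4 had EC1118 above 100. The 4 were AIF1, SEO1, ENA5 and PHO5. ENA5 counted here on 1 of its 2 probe sets, and its other gave signal in both strains (log2 difference 1.95). The 9 were 1 unnamed probe set and ASP3-1, PRM8, MAL11, BDS1, FEX2, YIL014C-A, YLR156W and YOL162W. On 57 probe sets both strains stayed at the floor.

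Differences were most frequent among the genes nearest chromosome ends. Of the 235 measured genes among the first 10 from an end, 51.9% were called, with 10.6% at least 2-fold higher in EC1118 and 14.9% at least 2-fold lower. Genes ranked 11 to 20 gave 35.7%, 3.78% and 5.84% for these shares, genes ranked 21 to 40 gave 30.0%, 1.33% and 2.65%, and genes ranked 41 and further gave 32.0%, 1.85% and 2.85%. From rank 21 on the shares thus no longer fell with distance. These shares are a description with no test. Differences of genes at the floor in 1 strain are bounds here too. Among measured genes in chromosome order, there were 10 runs of 3 or 4 genes that were all at least 2-fold different in 1 direction. Unmeasured genes between them were passed over. The runs too are a description, with no expected number beside them. ADH7, RDS1 and AAD3, ranked 2 to 4 from an end, were higher, with log2 differences from 3.37 to 5.12. MAL13, MAL11 and COS6 were lower, from -6.45 to -3.39. EHD3, KRS1 and ENA5 lay far from an end and were higher, from 1.95 to 4.66. KRS1, the cytosolic lysyl-tRNA synthetase, read 1934, 1796 and 1934 in EC1118, against 185, 199 and 133 in CEN.PK113-7D (11.1-fold higher). The run of ASP3-1, YLR156W and YLR157W-E, spread over ranks 216 to 223, was lower, from -9.03 to -3.56. A second probe set of YLR157W-E was at the floor in both strains.

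Sugar genes differed by family. Of 9 maltose and isomaltose genes, 7 were lower in EC1118 and 0 higher, with a median of -1.61. MAL11, a maltose permease, was at the floor on all EC1118 arrays and read 179, 246 and 327 in CEN.PK113-7D (at least 24.3-fold lower). MAL13, an activator of maltose genes, was at least 10.5-fold lower, and the isomaltase IMA5 4.73-fold lower. MAL31, another maltose permease, read 203, 218 and 219.9 in EC1118, against 198, 219 and 231 in CEN.PK113-7D, with overlap (log2 difference -0.01 ± 0.13, adjusted p = 0.966). Of 17 hexose transporters and sensors, 3 were higher and 3 lower, with a median of 0.00, shares near those of all probe sets. HXT1, a low-affinity glucose transporter, read 1432, 1490.2 and 1351 in EC1118, against 161, 123 and 52.9 in CEN.PK113-7D (14-fold higher). HXT2, a high-affinity one, was 3.61-fold higher (adjusted p = 0.0137, and 0.0594 without replicate 3 of both strains), and the glucose sensor SNF3 differed by 0.58 log2. HXT14, at the floor on all EC1118 arrays, was at least 4.15-fold lower. HXT9 had a log2 difference of -2.11 on the probe set of higher mean and -0.27 on its other, which was not called. HXT10 differed by -0.83 log2, and the HXT10 call was lost under quantile normalization (adjusted p = 0.143). HXT13 was at the floor on all arrays of both strains.

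Nitrogen genes moved both ways, while nitrogen limited growth in both strains. Of 21 amino acid permeases, 7 were higher in EC1118 and 8 lower, where 18.5% and 13.9% of all probe sets were. Only 4 were higher without CEN.PK113-7D replicate 2 or without EC1118 replicate 3. DIP5, the permease for glutamate and aspartate, read 2613, 2272 and 2534 in EC1118, against 157, 98.7 and 153 in CEN.PK113-7D (18.5-fold higher, adjusted p = 4.44e-07). SAM3, the S-adenosylmethionine permease, was 1.78-fold higher. BAP2, a permease for branched-chain amino acids, read 18.3, 22.3 and 26.1 in EC1118, against 207, 289 and 203 in CEN.PK113-7D (10.5-fold lower), and AGP3 was at least 6.03-fold lower.

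Of 8 genes for breakdown of proline, arginine and GABA, 5 were higher in EC1118 and 1 lower, with a median of 0.65. PUT1, proline oxidase, read 781, 978 and 1475 in EC1118, against 115, 138 and 276 in CEN.PK113-7D (6.35-fold higher), and CAR2, ornithine aminotransferase, 939, 959 and 841 in EC1118, against 299, 347 and 324 in CEN.PK113-7D (2.82-fold higher). UGA2, UGA1 and PUT2 were higher by 0.70, 0.49 and 0.60 log2. PUT3, the activator of the proline genes, ran the other way, 194, 178 and 144 in EC1118, against 377, 343 and 343 in CEN.PK113-7D (2.07-fold lower). Of 10 allantoin and urea genes, 3 were higher and 1 lower, where 18.5% and 13.9% of all probe sets were. DUR3, a urea transporter, was 3.38-fold higher and DAL5, the allantoate permease, 1.60-fold higher. DAL1, allantoinase, was 1.41-fold higher, a call lost without CEN.PK113-7D replicate 1 or 2 or EC1118 replicate 3, and with the 15 °C arrays alone. DAL2, allantoicase, was 1.73-fold lower, and 2 were lower without CEN.PK113-7D replicate 3 and 2 with the replicate block.

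Of 13 pyrimidine genes, 5 were higher and 2 lower. FUI1, the uridine permease, read 248, 257 and 344 in EC1118, against 21.6, 25.4 and 21.2 in CEN.PK113-7D (12.3-fold higher, adjusted p = 2.24e-08). URA10, a minor orotate phosphoribosyltransferase, was 2.20-fold higher. URA3, URA4 and URA8 were higher by 0.41, 0.35 and 0.39 log2, and the URA4 call was lost without replicate 3 of both strains (adjusted p = 0.0542). FUR1, the uracil phosphoribosyltransferase of salvage, was 2.20-fold lower, and URA2 differed by -0.24 log2. Without replicate 3 of both strains the counts were 3 higher and 1 lower. The higher count was also 3 without EC1118 replicate 3, and the lower count 1 without CEN.PK113-7D replicate 1 or EC1118 replicate 2.

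Phosphate genes were higher in EC1118 in 12 of 22 cases and lower in 2, with a median of 0.32, and the counts were the same without replicate 3 of both strains. Beside PHO5, PHO84, the high-affinity phosphate transporter, read 279, 260.2 and 266 in EC1118, against 38.9, 43.6 and 31.1 in CEN.PK113-7D (7.15-fold higher, adjusted p = 1.63e-05). GIT1, a transporter of glycerophosphoinositol, was 2.61-fold higher, and VTC3, of the polyphosphate polymerase complex, 1.40-fold higher. The lower pair was PHO89, the sodium-coupled phosphate transporter, at -1.85 log2, and PHM8 at -0.80.

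Metal genes differed for single transporters. Of 27 iron uptake genes, 5 were higher and 6 lower, the higher share at the 18.5% and the lower share above the 13.9% of all probe sets. Only 3 were lower without replicate 3 of both strains. ARN2, a siderophore transporter, read 137, 127 and 132 in EC1118, against 10, 10 and 10 in CEN.PK113-7D (at least 13.2-fold higher), with 2 CEN.PK113-7D arrays at the floor and the other just above it. FRE7, a metalloreductase, was at least 3.88-fold higher, and FET4, SIT1 and FRE8 were higher by 0.86, 0.65 and 0.36 log2. ENB1, the enterobactin transporter, read 53.4, 54 and 44.4 in EC1118, against 239, 261 and 246 in CEN.PK113-7D (4.93-fold lower), and FIT2, a cell wall mannoprotein of siderophore retention, was 3.89-fold lower. Of 10 copper genes, 2 were higher, near the 18.5% of all probe sets, and 0 lower. CTR3, a copper transporter, read 1506, 1414 and 1632 in EC1118, against 99, 290.1 and 437 in CEN.PK113-7D (6.52-fold higher, and 4.26-fold without CEN.PK113-7D replicate 1), and CTR1, another, was 2.59-fold higher. Leaving out CEN.PK113-7D replicate 1 or 3, EC1118 replicate 2 or 3, or replicate 3 of both strains gave 1 copper gene lower. With the replicate block 2 were lower, the superoxide dismutase SOD1 (adjusted p = 0.0512, with the block 0.0238) and the copper chaperone ATX1 (0.0558, with the block 0.00757). Both also passed with median centring and with quantile normalization. The metallothionein CUP1-1, on a shared probe set, read 2054, 2263 and 2598 in EC1118, against 3695, 2663 and 2409 in CEN.PK113-7D, with overlap (adjusted p = 0.119).

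Of 10 genes of sodium and potassium transport, 3 were higher and 1 lower, where 18.5% and 13.9% of all probe sets were. ENA5, a sodium pump of a multi-copy family, was higher on both its probe sets, at least 11.7-fold and 3.87-fold. NHX1, an endosomal exchanger, was 1.37-fold higher, a call lost with the 15 °C arrays alone (adjusted p = 0.0625), and the vacuolar exchanger VNX1 1.22-fold higher. TOK1, a potassium channel, was 1.30-fold lower, a call lost without CEN.PK113-7D replicate 2 or 3 or EC1118 replicate 1 or 2. The TOK1 call was also lost with the 15 °C arrays alone and without EC1118 replicate 2 or 3 at 30 °C.

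Of 23 genes for sulfite and drug export, 9 were higher in EC1118 and 4 lower, with a median of 0.24. SSU1, the sulfite pump of the plasma membrane, read 2026, 1869 and 1949 in EC1118, against 694, 843 and 463 in CEN.PK113-7D (3.01-fold higher, adjusted p = 0.000104). FZF1, its activator, was 1.66-fold lower. QDR2, a multidrug exporter, read 672, 677 and 752 in EC1118, against 142, 141 and 124 in CEN.PK113-7D (5.17-fold higher), and PDR18, at the floor on all CEN.PK113-7D arrays, was at least 5.36-fold higher. PDR10, QDR1 and PDR1 were lower by log2 differences of -0.69, -0.59 and -0.42. The lower count was 2 without CEN.PK113-7D replicate 1 or 3, without EC1118 replicate 2 and without replicate 3 of both strains. PDR12, the weak acid pump, read 2001, 2029 and 2376 in EC1118, against 2252, 2325 and 2597 in CEN.PK113-7D, with overlap (adjusted p = 0.731). ARR3, the arsenite exporter, was 1.64-fold higher.

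Among 7 aryl-alcohol and NADPH alcohol dehydrogenases, 3 were higher and 2 lower. Beside ADH7, AAD3 was higher on all 3 of its probe sets, by log2 differences from at least 2.47 to 3.63, and AAD14 1.60-fold higher, while AAD6, at the floor on all EC1118 arrays, was at least 11.8-fold lower and AAD4 lower on both its probe sets, by log2 differences of -2.11 and -1.58. Of 30 genes of sulfur assimilation and methionine, 3 were higher and 6 lower, where 18.5% and 13.9% of all probe sets were. Only 1 was higher without CEN.PK113-7D replicate 2 or EC1118 replicate 3. BDS1, a sulfatase, was at the floor on all EC1118 arrays and read 188, 175 and 156 in CEN.PK113-7D (at least 17.3-fold lower). SAM4, CYS4 and MHT1 were the higher ones, at 0.63, 0.24 and 0.33 log2. Of 22 thiamine, pyridoxine and biotin genes, 4 were higher and 5 lower, the higher share near the 18.5% of all probe sets, and 2 were higher without EC1118 replicate 1. SNZ3 and SNO3, of vitamin B synthesis and on shared probe sets, were 4.55-fold and 4.36-fold lower, with THI13 2.13-fold lower and THI22 and THI3 at -1.15 and -0.41 log2. The higher ones were THI72, THI4, BIO2 and the biotin transporter VHT1, between 0.41 and 0.71 log2. Of 8 COS genes, COS8, COS2 and COS4 were higher, at 4.16, 0.59 and 0.23 log2, and COS6 and COS7 lower, at -6.45 and -2.63.

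Genes of reserve carbohydrates were mostly higher in EC1118, by modest amounts. Of 9 trehalose genes, 7 were higher and 0 lower, with a median of 0.42. Only 3 were called without CEN.PK113-7D replicate 1, CEN.PK113-7D replicate 2 or EC1118 replicate 2, and 4 without EC1118 replicate 3. TPS3, a subunit of trehalose synthase, read 877, 827 and 851 in EC1118, against 646, 592 and 672 in CEN.PK113-7D (1.34-fold higher), and the trehalases NTH1 and ATH1 were 1.42-fold and 1.51-fold higher. Of 14 glycogen genes, 8 were higher and 0 lower, with a median of 0.53, 9 were higher without replicate 3 of both strains, and 1 was lower with the replicate block. GSY1, a glycogen synthase, read 1431, 1159 and 1184 in EC1118, against 326, 345 and 549 in CEN.PK113-7D (3.17-fold higher). GLC3, the branching enzyme, was 2.04-fold higher, GDB1, the debranching enzyme, 1.96-fold higher and GAC1, a phosphatase subunit of glycogen control, 2.61-fold higher.

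Stress genes moved both ways. Of 23 targets of Msn2 and Msn4, the general stress activators, 8 were higher and 2 lower. The higher count was 5 without CEN.PK113-7D replicate 1 or replicate 2 and 4 without EC1118 replicate 2. ALD2, an aldehyde dehydrogenase, was 2.92-fold higher and PNC1, a nicotinamidase, 1.54-fold higher. The lower pair was YGP1, a stress-induced secreted glycoprotein (2.98-fold lower, adjusted p = 0.00869, and 0.0703 without replicate 3 of both strains), and GPX1, a glutathione peroxidase (2.49-fold lower). Of 34 heat shock proteins and chaperones, 5 were higher and 11 lower, with a median of -0.13. Those counts were 2 and 8 without replicate 3 of both strains, and 2 and 7 without EC1118 replicate 3. The higher count was also 2 without CEN.PK113-7D replicate 2, and 3 without CEN.PK113-7D replicate 1 or 3 or EC1118 replicate 1. AHA1, an activator of Hsp90, was 1.59-fold lower, SIS1, a co-chaperone, 1.67-fold lower and SSA2, an Hsp70, 1.43-fold lower. HSP31 was 1.70-fold higher, and SSZ1, ZUO1, HSP60 and SSB2 were higher by 0.19 to 0.40 log2.

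Cell surface and division genes included some of the tightest differences. FLO11, the flocculin of adhesion and filamentous growth, read 4422, 4383 and 4404 in EC1118, against 492, 528 and 548 in CEN.PK113-7D (8.43-fold higher, log2 difference 3.08 ± 0.08, adjusted p = 2.16e-09). Of 13 flocculin and filamentous growth genes, 4 were higher and 3 lower. MGA1, FLO8 and FLO1 were higher by 1.55, 0.51 and 0.94 log2, and TEC1, NRG2 and FLO9 lower at -1.04, -0.74 and -0.46. Of 9 genes of daughter cell separation, 8 were lower in EC1118 and 0 higher, with a median of -0.55. The lower count was 5 without CEN.PK113-7D replicate 1 or EC1118 replicate 2, and 6 without replicate 3 of both strains. AMN1, an inhibitor of mitotic exit, read 243, 259 and 279 in EC1118, against 810.3, 828 and 962 in CEN.PK113-7D (3.33-fold lower), and CTS1, the chitinase of septum degradation, 787, 676 and 753 in EC1118, against 1600.5, 1496 and 1788 in CEN.PK113-7D (2.20-fold lower). Of 14 cyclins and Cdk inhibitors, 9 were lower, FAR1 among them, and 1 higher. CLN2, a G1 cyclin, was 1.81-fold lower. The higher one was CLN3, another, at 0.59 log2, and its call was lost without CEN.PK113-7D replicate 1 or 2, without EC1118 replicate 1 or 3 and without replicate 3 of both strains.

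Genes of protein turnover shifted by small amounts. Of 32 proteasome genes, 14 were lower in EC1118 and 0 higher, with a median of -0.18. The count was 9 without CEN.PK113-7D replicate 1 or EC1118 replicate 3, and 10 without replicate 3 of both strains. RPT6, an ATPase of the regulatory particle, read 972, 966 and 839 in EC1118, against 1569, 1526 and 1430.0 in CEN.PK113-7D (1.63-fold lower). Of 119 ribosome biogenesis genes, 14 were higher and 5 lower, shares below the 18.5% and 13.9% of all probe sets, and 3 and 3 without replicate 3 of both strains. The higher count was 6 without CEN.PK113-7D replicate 2, 5 without CEN.PK113-7D replicate 3 or EC1118 replicate 1, and 3 without EC1118 replicate 3. The lower count was 2 without CEN.PK113-7D replicate 1 or 2 or EC1118 replicate 3, and 3 without EC1118 replicate 2. Cytosolic ribosomal protein genes gave 2 higher and 4 lower of 128, with a median of -0.01.

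**Figure D3:**
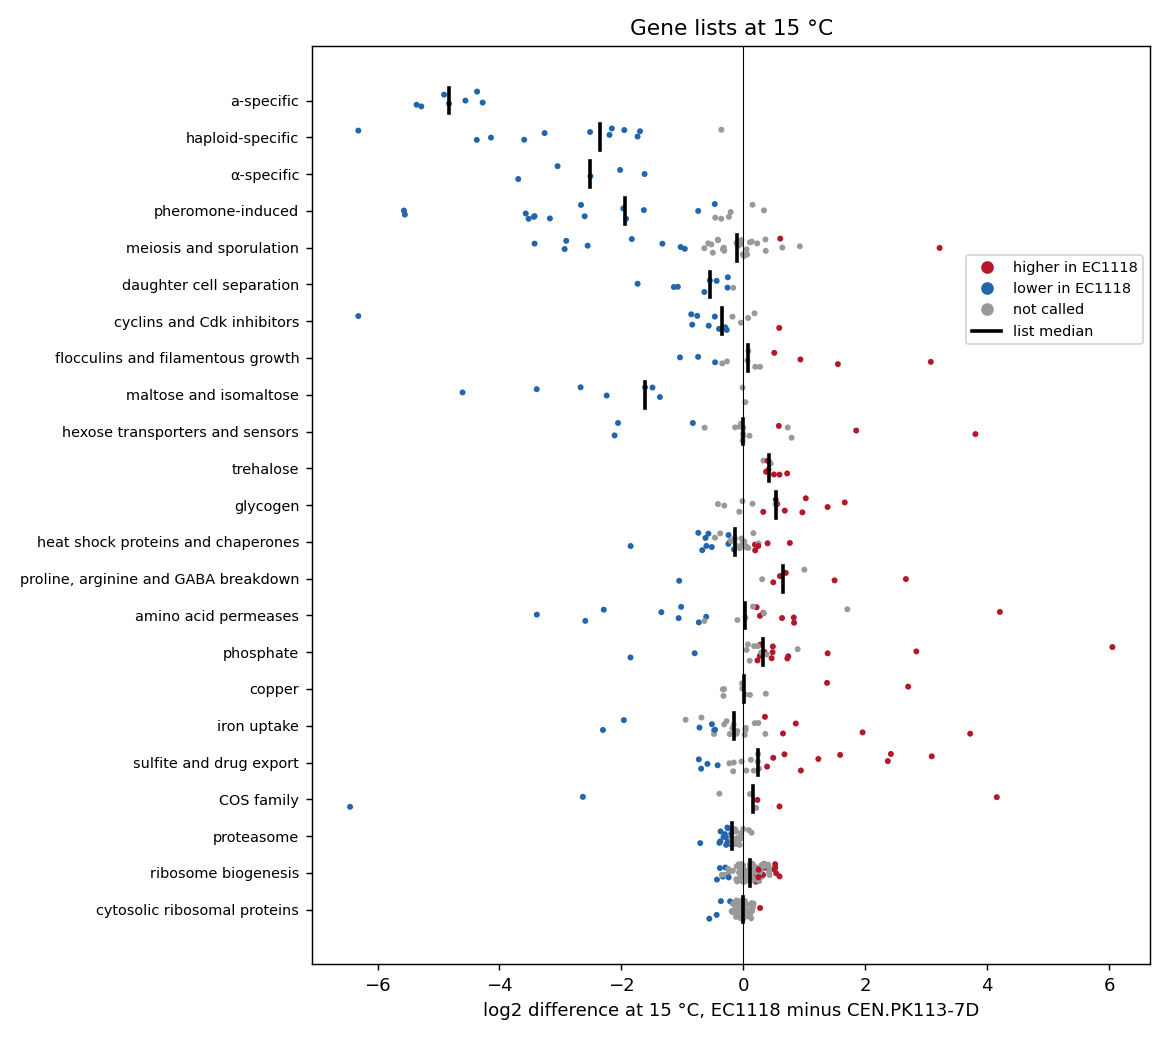
Log2 difference at 15 °C (horizontal axis, EC1118 minus CEN.PK113-7D) of each member of 23 gene lists (vertical axis), red where called higher, blue where called lower, grey where not called, with the list median as a black bar. The a-specific median lies at -4.83 and the cytosolic ribosomal protein median at -0.01.

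The 30 °C arrays show which strain differences were shared between temperatures. At 30 °C 2377 probe sets (40.3%) differed, 1204 higher (20.4%) and 1173 lower (19.9%), of which 2.19% and 5.14% of all probe sets were at least 2-fold. Of the 1913 called at 15 °C, 1121 (58.6%) were called in the same direction at 30 °C, 61 in the opposite one and 731 were not called. The strain difference itself differed between temperatures, by the interaction test of the same fit, for 755 probe sets (12.8%), 498 with a higher value at 15 °C (8.44%) and 257 with a lower one (4.36%). Interactions of at least 2-fold made 1.93% above 0 and 0.712% below. On 14 of the 755, 1 strain was at the floor on all its 6 arrays, so the value shows only the change of the other strain with temperature. With quantile normalization the split of calls was 389 and 358. The lower count was 139 and 147 without EC1118 replicate 1 or 2 at 15 °C, 155 without CEN.PK113-7D replicate 2 at 15 °C, 160 without EC1118 replicate 3 at 30 °C and 152 without CEN.PK113-7D replicate 2 at 30 °C. Of the 1913, 408 passed the interaction test. The 15 °C and 30 °C differences correlated at r = 0.79 across probe sets, which are not independent.

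The mating-type genes kept their direction in part. At 30 °C, 7 of 7 a-specific and 12 of 12 haploid-specific genes were lower in EC1118, with medians of -5.60 and -2.72. Of the α-specific genes, 1 of 5 was lower at 30 °C, AFB1 at -1.22 log2, and 4 passed the interaction test with a lower difference at 15 °C. That of AFB1 was lost without any 1 of 8 arrays, among them CEN.PK113-7D replicates 2 and 3 and EC1118 replicates 1 and 2 at 15 °C. MF(ALPHA)1 read 338, 377 and 394 in EC1118, against 144, 136 and 233 in CEN.PK113-7D at 30 °C (interaction -4.20 ± 0.81 log2, adjusted p = 0.0104), and MF(ALPHA)2 13.7, 19.6 and 17.3 in EC1118, against 20.2, 14.4 and 19.4 in CEN.PK113-7D (interaction -3.60 ± 0.74, adjusted p = 0.0133). Without CEN.PK113-7D replicate 3 at 15 °C these interactions were -3.56 and -2.84. HOP1 and PES4, which encodes an RNA-binding protein, also had interactions below 0, at -3.10 and -2.42. For HOP1, EC1118 at both temperatures and CEN.PK113-7D at 30 °C (13.1, 12.6 and 10) lay at or near the floor. Only CEN.PK113-7D at 15 °C was clearly above it.

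FLO11 turned round between temperatures. At 30 °C it read 2863, 2361 and 2648 in EC1118, against 4381, 4145 and 3868 in CEN.PK113-7D (log2 difference -0.66), and its interaction was 3.73 ± 0.11 (adjusted p = 1.12e-07). The HXT2 difference turned too, with 412, 95.8 and 215 in EC1118, against 1371, 1001 and 1258 in CEN.PK113-7D at 30 °C (interaction 4.41 ± 0.66, adjusted p = 0.00394), as did that of PHO84, with 100.1, 134 and 115 in EC1118, against 147, 176 and 297 in CEN.PK113-7D (interaction 3.61 ± 0.33). DIP5 read 4236, 3276 and 3237 in EC1118, against 2819, 1968 and 1757 in CEN.PK113-7D at 30 °C, so CEN.PK113-7D was low for DIP5 at 15 °C and high at 30 °C (interaction 3.47 ± 0.30). YAR068W read 295, 96.1 and 177 in EC1118, against 151, 107 and 135 in CEN.PK113-7D at 30 °C, with overlap (interaction 3.52). YRO2, a plasma membrane protein of stress, was 7.37-fold lower in EC1118 at 15 °C, where it read 68.5, 110.1 and 64.7 in EC1118, against 459, 525 and 812 in CEN.PK113-7D, and at 30 °C it read 856, 1989 and 1162 in EC1118, against 1110.3, 1241 and 1224 in CEN.PK113-7D, with overlap (interaction -2.96 ± 0.46, adjusted p = 0.00439). AQY1, an aquaporin, was not called at 15 °C, where it read 35.4, 90.0 and 36.1 in EC1118, against 18.1, 31.3 and 36.5 in CEN.PK113-7D (adjusted p = 0.336), and its difference was 4.75 log2 at 30 °C (interaction -3.92, and -4.52 without EC1118 replicate 1 at 30 °C). SFG1, a regulator of filamentous growth, was likewise not called at 15 °C (adjusted p = 0.434) and lower in EC1118 at 30 °C (-2.27 log2, interaction 2.55).

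**Figure D4:**
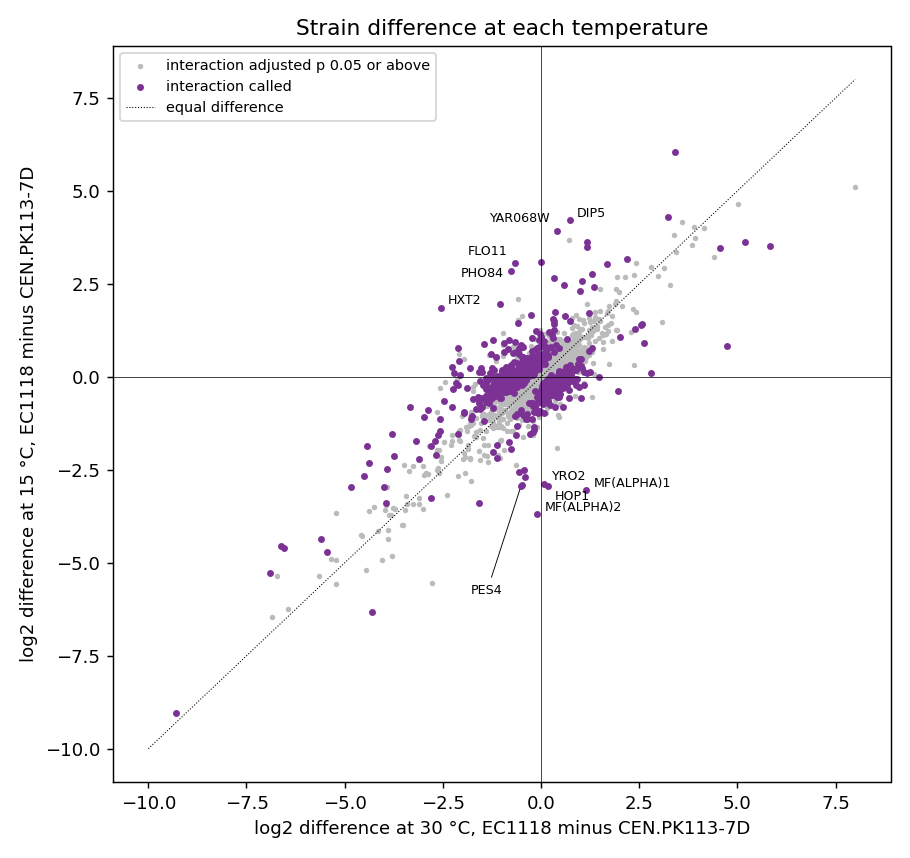
Log2 difference between the strains at 15 °C (vertical axis) against that at 30 °C (horizontal axis), both EC1118 minus CEN.PK113-7D, 1 point per named probe set, purple where the interaction was called, with equal differences on the dotted line. The 10 labelled genes have the highest and lowest interactions among genes called both at 15 °C and in the interaction, among them HXT2 at 4.41 and MF(ALPHA)1 at -4.20.

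Some groups held many genes whose strain difference differed between the temperatures, where 8.44% of all probe sets had a higher difference at 15 °C and 4.36% a lower one. For daughter cell separation all 9 genes were lower at 30 °C with a median of -1.61, and 8 passed the interaction test toward a smaller difference at 15 °C. CTS1 read 681, 544 and 817 in EC1118, against 4203, 4125 and 3716 in CEN.PK113-7D at 30 °C (interaction 1.44 ± 0.19). For the proteasome 32 of 32 genes were lower at 30 °C, median -0.57, and 20 of 32 passed the interaction test toward a smaller difference at 15 °C. Ribosome biogenesis genes were higher at 30 °C in 72 of 119 cases, median 0.38, and 17 of 119 passed the interaction test toward a lower difference at 15 °C, with 2 above 0. Heat shock proteins and chaperones were lower in 22 of 34 cases at 30 °C, with 9 interactions above 0 and 1 below. Breakdown of proline, arginine and GABA gave 3 higher and 2 lower at 30 °C, with 5 of 8 interactions above 0. PUT1 read 2927, 3119 and 2735 in EC1118, against 1890.2, 2438 and 2657 in CEN.PK113-7D at 30 °C (interaction 2.32 ± 0.45).

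**Figure D5:**
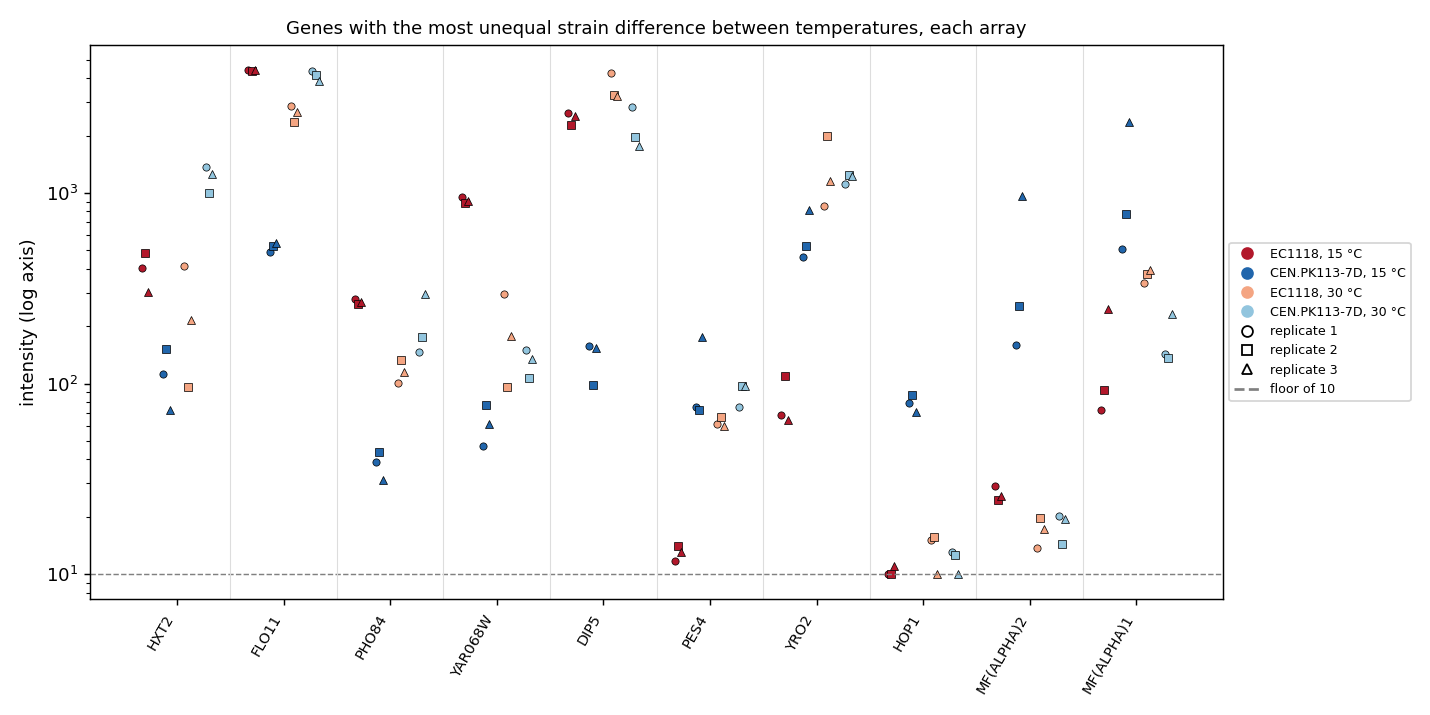
Intensity on each array (vertical axis, log scale) of the 5 genes of highest interaction and the 5 of lowest interaction among genes called both at 15 °C and in the interaction (horizontal axis), for EC1118 and CEN.PK113-7D at 15 °C and then at 30 °C, with 1 symbol per replicate and the floor of 10 dashed. FLO11 is higher in EC1118 at 15 °C and lower in EC1118 at 30 °C.

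Of the remaining genes of the panel, some were called and some were not. OLE1, the fatty acid desaturase, read 3265, 3212 and 2832 in EC1118, against 4087, 3623 and 3443 in CEN.PK113-7D (1.20-fold lower, adjusted p = 0.0345). The OLE1 call was lost without CEN.PK113-7D replicate 1 or 2, without EC1118 replicate 2 or 3, without replicate 3 of both strains and with the 15 °C arrays alone. AQY2, a second aquaporin, was 1.90-fold lower and MRH1, related to YRO2, 1.28-fold lower. ARE2, a sterol acyltransferase, read 292, 329 and 415 in EC1118, against 558, 606 and 609 in CEN.PK113-7D, without overlap but not past the threshold (adjusted p = 0.205). EFM6, a methyltransferase of a translation elongation factor, read 620.2, 517 and 381 in EC1118, against 842, 862 and 444 in CEN.PK113-7D, with overlap (adjusted p = 0.235).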

How the data were processed

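RNA of 12 anaerobic, nitrogen-limited chemostat cultures was measured on Affymetrix yeast arrays, 1 per culture, and the arrays were grouped by strain and temperature as titled. The values are linear intensities per probe set, as the authors deposited them, with a floor of 10. For the summary and normalization of probes, the method is not given in the sources used here. Per the series' design text, the replicates are biological. The number of arrays limits the precision.

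Log2 intensities of all 5900 probe sets on all 12 arrays entered 1 limma fit (version 3.58.1, under R 4.3.3) with 4 group means, 8 residual degrees of freedom and a prior of 1.65. Contrasts were EC1118 minus CEN.PK113-7D at 15 °C, the same at 30 °C, and their difference (the interaction). Tests were two-sided, with Benjamini-Hochberg adjustment over all probe sets and a threshold of 0.05. Where an array of the dimmer strain was at the floor, the fold is given as a lower bound. The platform annotation named 5498 probe sets with 1 gene and 402 with none, and 12 symbols were updated through the RefSeq R64 table, used for names and gene order only.

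The members and gene lists were chosen with earlier results of these data known. Genes were named by rule. The rule took the 12 highest and 12 lowest differences at 15 °C past the threshold, without overlap and with no array of the higher strain at the floor. It added up to 4 members of each described list with the smallest adjusted p, and the a-specific, α-specific and haploid-specific lists. A fixed panel of single genes was added too. So were the 5 highest and 5 lowest interactions among genes called at 15 °C and in the interaction. ENA1, in the panel, was not named on the table. Other genes, among them those at the mating-type loci and in neighbouring runs, were chosen after their values were seen.

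Arrays with the same replicate number deviated together between the strains at 15 °C (r = 0.397, 0.283 and 0.273 for replicates 1, 2 and 3). The number was therefore used as a block within each temperature in 1 alternative fit, while the main fit had no pairing. The labels do not state a pairing. At 30 °C and across temperatures, only arrays numbered 1 deviated together throughout. Alternatives were quantile normalization, median centring, a filter on the dimmest 25% of probe sets, a pseudocount of 50, trended and robust variance, the replicate block, each array left out, the 15 °C arrays alone, 1 probe set per gene, shared-sequence probe sets left out and, chosen after seeing the data, replicate 3 of both strains left out. On simulated data for the 15 °C comparison over 5900 probe sets, 32, 43, 50 and 50 of 50 changes of 0.5, 1, 2 and 3 log2 were recovered, with 11 unchanged probe sets called. The simulated noise was independent between arrays, without a floor, and only probe sets with a mean intensity above 50 were changed. These figures therefore do not cover genes at the floor or arrays that deviate together.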

Additional observations from a re-analysis of the deposited data

Results flagged for a closer look

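For 61 of the 157 named genes the strain difference passed limma's interaction test between the temperatures, with a Benjamini-Hochberg adjusted p under 0.05. Over all probe sets 12.8% passed. Some genes were named for their interaction and others for their difference at 15 °C, so the 2 shares cannot be compared. Each value in brackets is the log2 strain difference, EC1118 minus CEN.PK113-7D, at 15 °C minus the same at 30 °C. For 51 of them no array was at the floor. Among mating and meiosis genes, values above 0 were those of BAR1 (1.63), MFA2 (2.06), STE6 (1.23) and RME1 (0.90). Those below 0 were STE3 (-2.08), AFB1 (-0.80), MF(ALPHA)2 (-3.60), MF(ALPHA)1 (-4.20), HO (-0.46), NDT80 (-1.99) and PES4 (-2.42). Cell surface, separation and cycle genes gave FLO11 (3.73), SFG1 (2.55), AMN1 (0.96), CTS1 (1.44), DSE2 (1.89), DSE1 (1.82), PCL9 (0.49), CLN2 (0.69) and CLB5 (-0.43). Sugar and glycogen genes gave HXT2 (4.41), MAL31 (0.90) and GSY1 (1.93). Nitrogen and pyrimidine genes gave DIP5 (3.47), PUT1 (2.32), UGA2 (0.93), CAR2 (0.77), PUT3 (0.70), BAP2 (-1.82), FUI1 (2.46), URA10 (0.84) and FUR1 (-0.79). Phosphate, metal and ion genes gave PHO84 (3.61), VTC3 (0.45), GIT1 (-1.17), ENB1 (2.09) and ENA5 (3.0). That of ENA5 is from its shared probe set, where the 15 °C difference was 1.95, so EC1118 was the lower strain at 30 °C. The other ENA5 probe set went the other way at 30 °C. There CEN.PK113-7D was at the floor at both temperatures and EC1118 above it. Dehydrogenase and vitamin genes gave AAD4 (0.57), AAD14 (0.35) and SNZ3 (-1.07). Stress, turnover and ribosome genes gave ALD2 (1.24), AHA1 (0.73), SSA2 (0.88), HSP31 (-0.52), RPN9 (0.48), SCL1 (0.48), PRE8 (0.46) and HAS1 (-0.42). Membrane proteins and the rest gave YAR068W (3.52), YRO2 (-2.96) and AQY1 (-3.92).

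The other 10 values rest on the floor of 10, where a strain difference is only a bound. EC1118 was at the floor on all 6 arrays for MAL11 (1.94), ASP3-1 (0.26) and SPO11 (-2.42), so these values show only the change of CEN.PK113-7D with temperature. CEN.PK113-7D was at the floor on all 6 for PHO5 (2.65), SEO1 (1.05) and PDR18 (1.07), which show only the change of EC1118. For these 6 genes it cannot be told whether the strain difference differed. Some arrays were at the floor for MAL13 (0.56), HOP1 (-3.10), FAR1 (-2.02) and AAD3 (-2.31). Of the 61 interactions, 54 passed without any 1 array. The other 7, SEO1, ASP3-1, AFB1, MAL13, HSP31, HAS1 and STE6, each missed the threshold without some 1 array. Without replicate 3 of both strains at 15 °C, AQY1 (adjusted p = 0.0664), MAL13 (0.0652) and SEO1 (0.116) missed it.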

How the results depend on the processing

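Leaving out each array in turn gave 778 to 1093 probe sets higher in EC1118 and 647 to 821 lower at 15 °C, 916 to 1284 higher and 993 to 1247 lower at 30 °C, and 339 to 603 interactions above 0 and 139 to 268 below. Leaving out the dimmest 25% of probe sets, which tests fewer of them, gave 517 lower at 15 °C and 167 interactions below 0. The 15 °C arrays alone gave 783 higher and 658 lower. Every other count over all probe sets stayed within 1.5 times its value under the alternatives run. With the replicate number as a block, the counts were 1252 higher and 913 lower at 15 °C, 1321 and 1314 at 30 °C, and 607 and 296 for the interaction, and beyond the changes given beside the results the block changed no call of a named gene at 15 °C. Same-numbered arrays of the strains deviated together at 30 °C for replicate 1 alone (r = 0.298, 0.0154 and 0.0055). Across temperatures r ran from 0.325 to 0.417 for replicate 1 and from -0.385 to 0.2025 for replicates 2 and 3. For the 30 °C and interaction counts, replicates 2 and 3 thus share little beyond a number. In the interaction, DAL5, SNO3, ATX1, NHX1 and COS7 passed only with the block, and SEO1 (adjusted p = 0.0610), ASP3-1 (0.0682), MAL13 (0.0539) and STE6 (0.0828) only without it. Of the 146 named genes called at 15 °C, 134 were called under every alternative run for them (20 to 22 of 22, since the dim filter and the shared-sequence setting drop probe sets), 12 missed the threshold under at least 1, and 0 changed direction. Many were named for a large difference or a small adjusted p in the main fit, so these counts do not carry over to all calls. The 12 were YMR317W, HXT10, TSL1, YGP1, URA4, HXT2, DAL1, ASP1, NHX1, SAG1, TOK1 and OLE1, and the cause was not tested. TSL1, a trehalose synthase subunit, missed it without CEN.PK113-7D replicate 1 or 2 or EC1118 replicate 2. List counts moved most with the dim filter, which drops members before the test. It gave 2 α-specific (5 without the filter), 5 haploid-specific (11), 6 pheromone-induced (14), 1 maltose (7), 0 meiosis (8), 0 hexose transporter (3), 0 permease (8), 2 iron (6), 0 phosphate (2), 1 alcohol dehydrogenase (2) and 1 COS gene (2) lower, and 2 flocculin (4), 0 meiosis (2), 2 iron (5), 5 export (9) and 0 alcohol dehydrogenase genes (3) higher. The 15 °C arrays alone gave 5 daughter separation (8), 9 proteasome (14), 2 export (4), 3 ribosome biogenesis (5), 1 pyrimidine (2) and 0 sodium and potassium genes (1) lower, and 2 heat shock (5), 4 permease (7), 1 sulfur (3), 3 pyrimidine (5), 3 iron (5) and 6 ribosome biogenesis genes (14) higher. Higher counts also moved to 5 meiosis and 8 ribosome biogenesis genes with quantile normalization and to 7 ribosome biogenesis and 3 heat shock genes with median centring. Leaving out shared-sequence probe sets gave 4 maltose, 3 vitamin, 1 asparaginase, 1 alcohol dehydrogenase and 1 COS gene lower and 1 COS gene higher. Lower copper genes numbered 0 to 2 and lower glycogen genes 0 to 1 over the alternatives, and lower allantoin genes were 2 with trended and robust variance. Signal at the floor of 10 gives only bounds on a fold. The summary behind the intensities is unknown, and signal on shared-sequence probe sets cannot be given to 1 copy.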
